A study of Mus musculus with 4 samples.

Results

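The genes described here are 10 genes of colonic enteroendocrine cells, the hormone-secreting cells of the gut lining. They were chosen by symbol from the table of 50600 genes. All 10 were found, and all 10 passed the filter on low counts. The list holds the granin genes Chga and Chgb, the peptide hormone genes Pyy, Gcg, Insl5, Cck, Sct and Sst, the serotonin enzyme gene Tph1 and the transcription factor gene Neurod1. The cells sequenced were primary epithelium of the colon from C57BL/6 mice, with 2 libraries wild type (WT) for Mettl14 and 2 knocked out (KO) for it. Mettl14 encodes a subunit of the enzyme that places N6-methyladenosine on mRNA. How Mettl14 was deleted is not given in the sources used here, and no label is named as an age. The titles share a code, C-2W, whose meaning is not given.

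Enteroendocrine cells are scattered singly through the epithelium and arise from crypt progenitors through the transcription factor Neurog3, followed by Neurod1. In the colon, enterochromaffin cells make serotonin, L cells make peptide YY, glucagon-like peptides and insulin-like peptide 5, and D cells make somatostatin. Their products are stored in dense-core granules, whose matrix is built from the granins, and are released on stimuli from the gut lumen.

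The libraries held 22136440 to 24991060 counts. Mettl14 was at 11.7 and 8.67 CPM (counts scaled to library size by the trimmed mean of M-values, TMM, in the CPM unit) in WT replicates 1 and 2, and at 3.99 and 3.94 CPM in KO replicates 1 and 2. Read from Xist and Y-linked genes, WT replicate 1 and KO replicate 2 were male and the other libraries female, so each genotype held both sexes. Of the 11 epithelial markers, 11 were detected, with summed levels of 9368 and 11259 CPM in WT and 8565 and 7880 CPM in KO. Among them, 8 had a negative log2 fold change (KO over WT) and 3 a positive one, with a median of -0.42. At an adjusted p under 0.05, edgeR called 0 and DESeq2 called 3 lower (7.11% of all genes by DESeq2). At an unadjusted p under 0.05, 4 were lower and 1 higher by edgeR, against 15.7% and 14.8% of all genes. Of the 10 stromal and endothelial markers, 10 were detected, at 60.6 and 86.6 CPM in WT, 81.5 CPM in KO replicate 1 and 579 CPM in KO replicate 2, so KO replicate 2 stood apart in the sum. All 10 had a positive log2 fold change, with a median of 1.83, and edgeR called 0 of them. In 6 both KO libraries lay above both WT libraries, against 31.1% of all genes tested. The lowest level was in WT replicate 1 for 9 of the 10. The summed level of the 11 leukocyte markers was 137 and 187 CPM in WT and 255 and 209 CPM in KO. Of these, 10 had a positive log2 fold change and 1 a negative one, with a median of 0.27. By edgeR's adjusted p, 1 was called higher, against 1.72% of all genes tested. It was Itgam (1.81, edgeR adjusted p = 0.0434). Of the 11 enteric neuron markers, 4 passed the filter on low counts. Elavl4, a neuron marker that endocrine cells also express, did not, and was at 0.0964, 0.337, 0.31 and 0.701 CPM. Among the enteric glia markers, Sox10 had at most 1 count in a library. The summed levels of the 9 posterior Hox genes, which vary with position along the colon, were 185 and 339 CPM in WT and 184 and 168 CPM in KO. Of these, 8 were tested, all 8 with a negative log2 fold change, and the median was -0.55. The same test called 1 lower, Hoxd10 (-2.06, edgeR adjusted p = 0.0437). At an unadjusted p under 0.05, 4 were lower and 0 higher, against 15.7% and 14.8% of all genes. The part that epithelial content, stromal RNA, leukocytes or colon position play in the endocrine values was not tested.

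WT replicate 1 also stood apart, in the endocrine genes themselves. Chga, Chgb, Tph1, Sct and Sst were each highest in it, and the levels of the 10 genes summed to 1299.9 CPM there. The sums were 565 CPM in WT replicate 2, 548 CPM in KO replicate 1 and 746 CPM in KO replicate 2. The sum in WT replicate 1 was therefore above both KO libraries, and the sum in WT replicate 2 lay between them. In bulk RNA, fewer endocrine cells and less RNA per cell cannot be told apart.

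**Figure D1:**
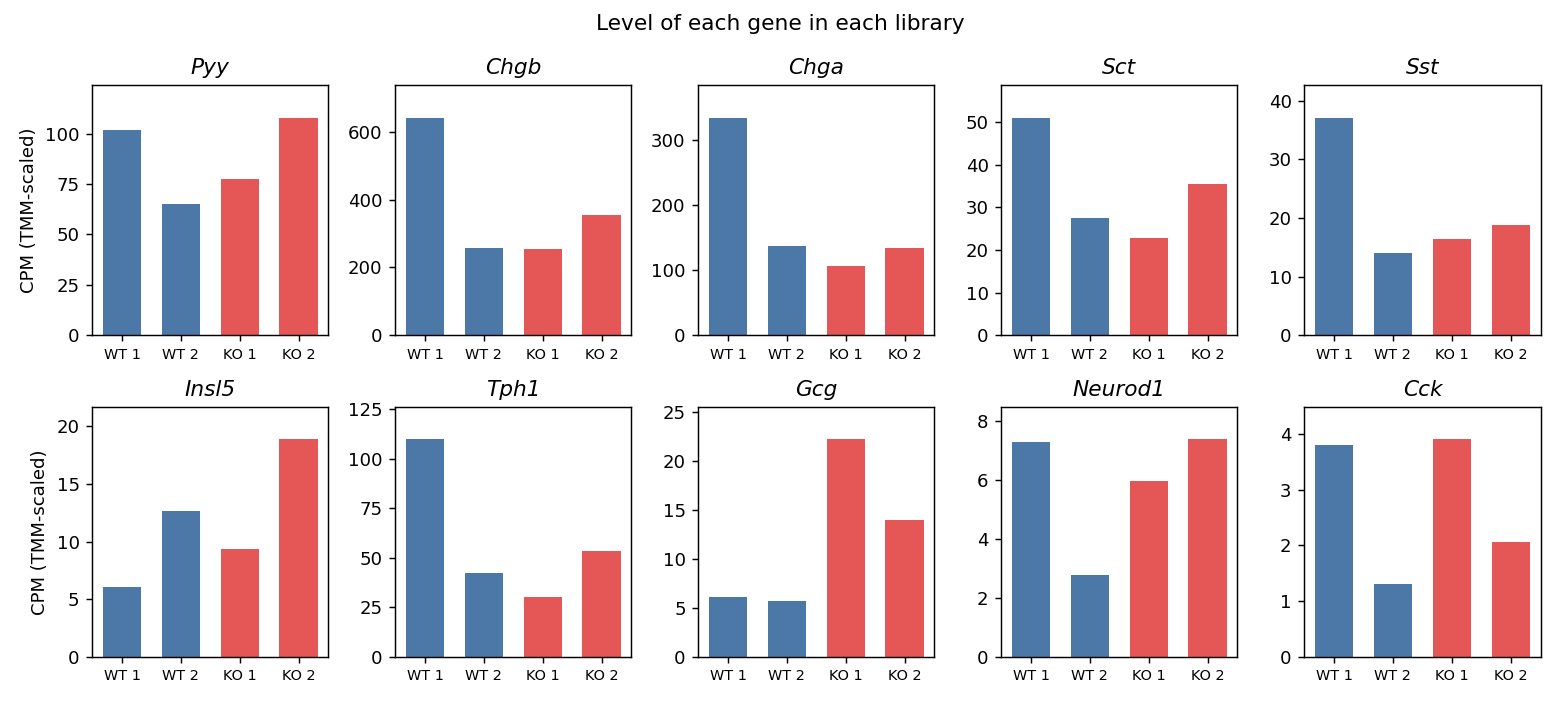
Level of each gene (CPM after TMM scaling, linear axes from 0) in the 2 WT (blue) and 2 KO (red) libraries, 1 bar per library. The KO bars of Gcg both stand above its WT bars, whereas Chga, Chgb, Tph1, Sct and Sst are highest in WT replicate 1.

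Divided by exon length, the most abundant transcripts over the 4 libraries were those of Pyy, at a mean of 139.5 CPM per kb, and Chgb, at 137.5 CPM per kb. Chga followed at 64.5, Sct at 53.0, Sst at 29.96, Insl5 at 16.2, Tph1 at 9.54 and Gcg at 8.03 CPM per kb. Neurod1, at 2.14 CPM per kb, and Cck, at 2.12 CPM per kb, were the lowest. The ranges over the libraries overlapped between neighbours in this order, except between Gcg, at 3.80 to 14.9 CPM per kb, and Neurod1, at 1.02 to 2.70 CPM per kb. In each library taken alone, Chgb lay above Chga and Chga above Sst.

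No member passed the test between genotypes, which was edgeR's quasi-likelihood test at an adjusted p under 0.05. Mettl14 itself was just outside the threshold (log2 fold change, KO over WT, -1.36, edgeR adjusted p = 0.0504). Of the 14861 genes tested, 3.61% passed (1.72% higher and 1.9% lower in KO). At an unadjusted p under 0.05, 1 member was higher (Gcg) and 0 were lower, against 14.8% of all genes higher, 15.7% lower and 30.5% in either direction. DESeq2 called 1 member higher, again Gcg, against 6.94% of genes higher and 7.11% lower, and limma-voom called 0. In 8 of the 10 members the WT and KO ranges overlapped, and in the others Gcg was higher and Chga lower. Of all genes tested, 63.3% did not overlap (31.1% higher and 32.2% lower). Log2 fold changes (KO over WT) were positive for 5 members and negative for 5, with a median of -0.14, beside -0.01 for all genes tested.

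Gcg encodes proglucagon, from which L cells cut glucagon-like peptides 1 and 2. The gene (ENSMUSG00000000394) lies on chromosome 2 at 62474530 to 62483650 on the minus strand of GRCm38. It had 127 and 135 counts in WT and 501 and 359 in KO, or 6.12 and 5.68 CPM in WT and 22.2 and 13.99 CPM in KO. Both KO libraries lay above both WT libraries, and the WT libraries differed by less than the KO libraries did. The WT mean was 5.90 ± 0.309 CPM and the KO mean 18.1 ± 5.82 CPM (SD, n = 2 each). The log2 fold change was 1.62 (SE 0.26), and its edgeR adjusted p of 0.0505 was just outside the threshold. The value was 1.23 without KO replicate 1 and 1.93 without KO replicate 2. It was 1.66 without WT replicate 1, the library with the high endocrine sum. Within sex, on log2(CPM + 0.5), KO exceeded WT by 1.13 between the male libraries and by 1.88 between the female ones. With sex as a covariate, edgeR called it at an adjusted p of 0.0315, where 9.48% of all genes passed (4.68% higher and 4.8% lower). Over all alternatives the adjusted p ran from 7.44e-05 (DESeq2) to 0.378.

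The other hormones of L cells did not show this separation. Pyy (chromosome 11, 102106676 to 102107832, minus strand), whose product slows transit and reduces appetite, was at 101.6 and 65.3 CPM in WT and 77.3 and 107.98 CPM in KO. The genotypes overlapped, with the highest level in KO replicate 2 and the lowest in WT replicate 2 (log2 fold change 0.15, SE 0.28, edgeR adjusted p = 0.746). Insl5 (chromosome 4, 103017872 to 103026842, minus strand), an insulin-like peptide of distal L cells, was at 6.02 and 12.6 CPM in WT and 9.31 and 18.9 CPM in KO. It was the one member with its lowest level in WT replicate 1, and its log2 fold change of 0.59 (SE 0.50, edgeR adjusted p = 0.463) became 0.01 without KO replicate 2. Cck (chromosome 9, 121489824 to 121495694, minus strand), which encodes cholecystokinin and is mainly a small intestinal hormone, was barely detected. It had 79 and 31 counts in WT and 88 and 53 in KO. The exact Poisson 95% interval of the 31 counts runs from 21.1 to 44.0 and covers counting error only. Each genotype held 1 library with a high and 1 with a low Cck level (log2 fold change 0.23, SE 0.63).

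The granin genes were higher in WT replicate 1 than in the other libraries. Chga (chromosome 12, 102554969 to 102565028, plus strand) encodes chromogranin A, the usual tissue marker of endocrine cells. It was at 334 and 136 CPM in WT and 106 and 135 CPM in KO. The genotypes did not overlap, but WT replicate 2 and KO replicate 2 had nearly the same level. The log2 fold change was -0.97 (SE 0.45, edgeR adjusted p = 0.227), and it was -0.19 without WT replicate 1 and -1.45 without WT replicate 2. Chgb (chromosome 2, 132781278 to 132795079, plus strand) encodes chromogranin B and was at 643 and 257 CPM in WT and 254 and 353 CPM in KO. Its genotypes overlapped, and its log2 fold change of -0.57 (SE 0.48) turned to 0.23 without WT replicate 1 and to -1.05 without WT replicate 2.

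Tph1 (chromosome 7, 46644641 to 46672537, minus strand) encodes tryptophan hydroxylase 1, the rate-limiting enzyme of serotonin synthesis in enterochromaffin cells. It was at 109.8 and 42.2 CPM in WT and 30.3 and 53.3 CPM in KO, with WT replicate 2 between the KO libraries. The log2 fold change was -0.86 (SE 0.53, edgeR adjusted p = 0.332), and it was -0.02 without WT replicate 1. Mast cells also express Tph1. The 11 mast cell markers summed to 108 and 107 CPM in WT and 98.1 and 103 CPM in KO, and the mast cell protease gene Cpa3 was at 3.13, 3.58, 2.48 and 2.49 CPM. The part of mast cells in the level of Tph1 was not tested.

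Sct and Sst followed the granins over the libraries. Sct (chromosome 7, 141278330 to 141279133, minus strand) encodes secretin, which stimulates bicarbonate secretion, and was at 51.1 and 27.4 CPM in WT and 22.7 and 35.5 CPM in KO. Sst (chromosome 16, 23889573 to 23890958, minus strand) encodes somatostatin, which inhibits the release of other gut hormones, and was at 37.1 and 14.1 CPM in WT and 16.4 and 18.7 CPM in KO. Both were highest in WT replicate 1 and overlapped between genotypes. Without WT replicate 1 the log2 fold change of Sct went from -0.43 to 0.07 and that of Sst from -0.54 to 0.31. Without WT replicate 2, the log2 fold change of Sst was -1.04.

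Neurod1 (chromosome 2, 79452521 to 79456751, minus strand) acts after Neurog3 in the endocrine lineage and drives hormone genes such as Sct. It was at 7.27 and 2.78 CPM in WT and 5.94 and 7.37 CPM in KO. WT replicate 2 was low and the other libraries lay close together, giving a log2 fold change of 0.41 (SE 0.49, edgeR adjusted p = 0.604). The value was 1.25 without WT replicate 1 and -0.10 without WT replicate 2. Exons of Cerkl on the same strand and of Gm26755 on the opposite strand overlap those of Neurod1, so some of its counts may be shared. It is the only member of the 10 with such an overlap.

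**Figure D2:**
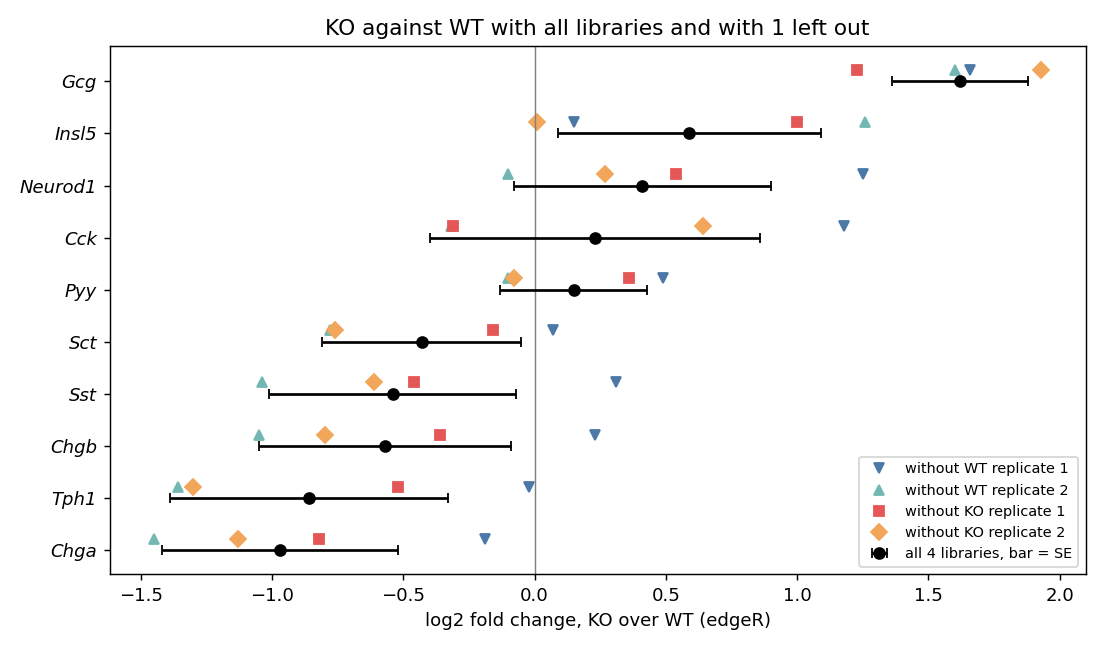
Log2 fold change of each gene, KO over WT, from edgeR with all 4 libraries (black, bar = SE) and with 1 library left out (coloured symbols). Gcg stays between 1.23 and 1.93, and the 5 genes at the bottom move towards or past 0 without WT replicate 1.

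Leaving out a WT library moved most members together. Without WT replicate 1, 8 of 10 members had a positive log2 fold change, and without WT replicate 2, 2 of 10 did. Within sex, the male difference (KO replicate 2 minus WT replicate 1) on log2(CPM + 0.5) was -1.31 for Chga, -1.04 for Tph1, -0.86 for Chgb and -0.52 for Sct. The female difference (KO replicate 1 minus WT replicate 2) was -0.37, -0.47, -0.02 and -0.27 in that order. These 4 were thus negative in both pairs and larger in size in the male pair. Pyy was at 0.09 and 0.24, and Neurod1 at 0.02 and 0.97, in the male and female pairs.

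The members were also set against Chga in the same library, which removes library scaling and the overall level of granin RNA. Between the WT libraries these ratios were close for 4 genes. Chgb had 192 and 189 counts per 100 counts of Chga, Tph1 had 32.8 and 30.9, Sst had 11.1 and 10.3, and Neurod1 had 2.18 and 2.04. The WT libraries thus differed in the level of these genes by far more than in their proportions. The WT ratios lay further apart for Insl5, with 1.80 and 9.25 counts per 100 of Chga, for Gcg and for Pyy. Gcg had 1.83 and 4.16, and Pyy had 30.4 and 47.9. Sct, with 15.3 and 20.1, and Cck, with 1.14 and 0.956, lay in between. In the KO libraries, Neurod1 stood at 5.63 and 5.48 per 100 counts of Chga, Chgb at 240.4 and 263, Pyy at 73.2 and 80.3 (30.4 and 47.9 in WT), and Gcg at 21.0 and 10.4 (1.83 and 4.16 in WT).

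For 7 of the other 9 members the ratio to Chga was higher in KO with no overlap, and for 0 it was lower. The same held for 49.4% of all genes tested, with 1.7% lower, and all of these ratios share the values of Chga. Set against Chgb instead, Neurod1 was at 1.13 and 1.08 per 100 counts in WT and 2.34 and 2.08 in KO, and Gcg at 0.952 and 2.21 in WT and 8.75 and 3.96 in KO. Sst overlapped on that scale, at 5.78 and 5.46 in WT and 6.48 and 5.30 in KO. With 2 libraries per genotype, an exact permutation test of a ratio could not reach the threshold, and none was run.

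**Figure D3:**
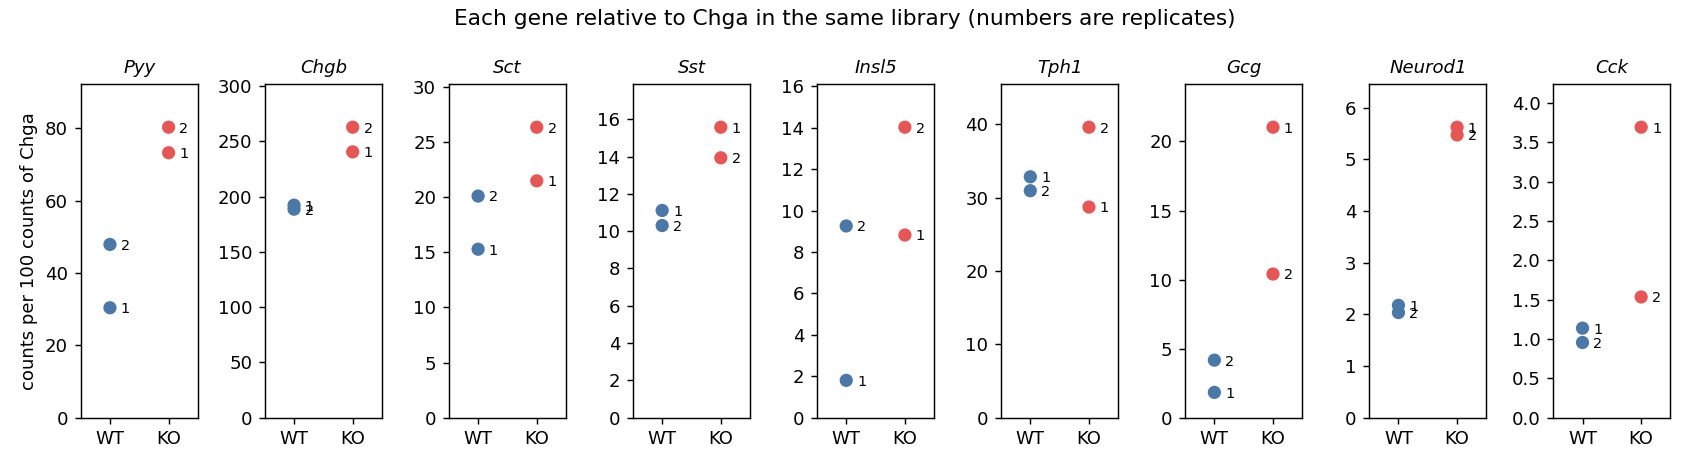
Counts of each gene per 100 counts of Chga in the same library (linear axes from 0), with the replicate number beside each point. For Chgb, Tph1, Sst and Neurod1 the WT points lie almost together, and for Neurod1 the KO points do as well, at 5.63 and 5.48.

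The gene with the highest mean CPM among the members, Chgb, was compared with 9751 genes with a mean of at least 5 CPM. The measure was the Euclidean distance between log2 profiles over the 4 libraries, each centred on its mean. The nearest were the aquaporin gene Aqp11 (distance 0.0701), Snrpn (0.0898), the mucin gene Muc3a (0.108), Slc18a1 (0.142) and the signalling regulator gene Rgs4 (0.165). Aqp11 was at 10.5 and 4.08 CPM in WT and 3.72 and 5.53 CPM in KO. Among the members, Sst ranked 11 in this order, Sct 33, Tph1 50 and Chga 59, whereas Insl5 ranked 9196 and Gcg 9458. Over 4 libraries such distances describe the shared high level in WT replicate 1.

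The promoters of the members were searched for 6 motifs, among them the cyclic AMP response element (CRE), which is known in several endocrine genes. RefSeq windows of GRCm38.p6 were available for 10 members, and the 250 bases before each start were searched on both strands, except for the TATA box, which was searched on the gene's strand. The palindromic element TGACGTCA was found in Chgb and Sst, or 2 of the 13 windows of the members. It was in 1.55% of the 32851 windows of all genes. Its first 5 letters, TGACG, were found in 5 of the 10 members (Cck, Chga, Chgb, Sst and Tph1), or 6 of the 13 windows. The share of all windows was 17.8%, and these counts include the palindrome. The sites are shown as 30 bases, 5′ to 3′ on the strand that carries TGACG, with TGACG and the 3 bases after it in capitals.
Chga, chr12:102554886-102554915, plus strand: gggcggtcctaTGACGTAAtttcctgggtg
Chgb, chr2:132781559-132781588, plus strand: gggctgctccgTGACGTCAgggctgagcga
Sst, chr16:23890874-23890903, minus strand: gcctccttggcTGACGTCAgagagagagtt
Tph1, chr7:46672555-46672584, minus strand: aaatgtgcgtgTGACGCTGcgtgtgctagc
Cck, chr9:121495726-121495755, plus strand: ttacccagtgcTGACGCAGtccagcaggac
The motif begins 44 bases before the start in Chga, 72 in Chgb, 48 in Sst and 36 in Tph1. Tph1 had another annotated start, whose sites are not shown. Its window held TGACG 47 bases before that start, and the reverse complement, CGTCA, at 248 and 21 bases. Such matches are descriptions of these windows and not evidence of binding.

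The E-box CAGATG, a sequence that Neurod1 and related factors can bind, was searched in the same way and found in 14.4% of all windows. It was in 4 of the 10 members, namely Cck, Gcg, Insl5 and Sct, and in 4 of the 13 windows of the members. The E-box CAGCTG was in 2 members, Chga and Sct (2 of the 13 windows, against 13% of all windows). Any E-box CANNTG, which contains both of these, was in 9 members, all but Tph1 (11 of the 13 windows, against 66.2%). The TATA box TATAAA was in 3 members, Gcg, Insl5 and Sct (3 of the 13 windows, against 7.59%). These matches too are not evidence of binding, and a link to the difference between genotypes was not tested. Gcg held CAGATG at 2 places. These and the site of Insl5 are shown here on the minus strand with the motif in capitals, and those of Cck and Sct are not shown.
Gcg, chr2:62483775-62483804: cagcgtaaaaagCAGATGagcaaagtgagt
Gcg, chr2:62483719-62483748: ccccattatttaCAGATGagaaatttatat
Insl5, chr4:103026889-103026918: gtgagatgtgttCAGATGaccgagtgagca

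Genes around the members were examined in lists of known roles. The counts of each list stand beside the shares over all genes tested, which were 1.72% higher and 1.9% lower by edgeR's adjusted p, 14.8% higher and 15.7% lower at an unadjusted p under 0.05, and 6.94% higher and 7.11% lower by DESeq2. Among 20 endocrine lineage transcription factors, 19 were tested and 1 rose over all genes. This was Sox4, which acts upstream in endocrine differentiation, at 17.2 and 18.4 CPM in WT and 38.7 and 47.3 CPM in KO (log2 fold change 1.27, SE 0.14, edgeR adjusted p = 0.0434). Exons of Gm26735 on the opposite strand overlap Sox4. Neurog3, the factor that commits progenitors to the endocrine fate, had 8 and 17 counts in WT and 46 and 64 in KO, or 0.385 and 0.715 CPM against 2.04 and 2.49 CPM. Both KO libraries were above both WT libraries (log2 fold change 2.02, SE 0.46), with an edgeR adjusted p of 0.0715 (0.0403 with no filter and 0.027 by DESeq2, which both called it), and exons of Fam241b overlap the gene on the opposite strand. The list had a median log2 fold change of -0.25, with 9 members positive and 10 negative. DESeq2 and edgeR with no filter each called 3 higher, adding Neurog3 and Atoh1, a secretory lineage factor (picked out after its values were seen, log2 fold change 0.57, edgeR adjusted p = 0.0532). With sex as a covariate, edgeR called 1 lower, Foxa2 (adjusted p = 0.0455), also picked out after its values were seen.

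A further pair of lineage factors was picked out after their values were seen. Insm1, a zinc finger factor of endocrine precursors, was at 6.65 and 3.07 CPM in WT, against 8.03 and 8.18 CPM in KO, with a log2 fold change of 0.74 (edgeR adjusted p = 0.271). Pax4, needed for several endocrine subtypes, had 42 and 12 counts in WT and 5 in each KO library (-2.56, edgeR adjusted p = 0.133). The value for Pax4 was -1.27 without WT replicate 1 and -3.22 without WT replicate 2. Neither gene was called with all 4 libraries.

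None of the 8 tested prohormone processing genes was called by edgeR over all genes (1 was higher and 0 lower at an unadjusted p under 0.05, and DESeq2 called 1 higher), and the median was 0.19. Pcsk1, the convertase that cuts prohormones in gut endocrine cells, was at 11.4 and 4.08 CPM in WT and 7.72 and 8.85 CPM in KO (log2 fold change 0.10). Pcsk2, the convertase of pancreatic alpha cells, had at most 2 counts in a library. Cpe, which trims the cut peptides, was at 26.0 and 34.6 CPM in WT and 38.8 and 40.8 CPM in KO (0.39, edgeR adjusted p = 0.189).

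Of 24 secretory granule and exocytosis genes, 0 were called by edgeR, with 1 higher and 2 lower at an unadjusted p under 0.05, and 1 was called lower both by DESeq2 and by edgeR with no filter. The log2 fold change was negative for 17 and positive for 7, with a median of -0.24. Scg2, which encodes the granin secretogranin II, was at 10.9 and 5.01 CPM in WT and 12.02 and 14.2 CPM in KO. Unlike for Chga and Chgb, its KO levels both lay above its WT levels, although the log2 fold change of 0.73 (SE 0.40) had an edgeR adjusted p of 0.281.

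Of the 8 serotonin handling genes besides Tph1, 7 had a negative log2 fold change, with a median of -0.65, and 0 were called by edgeR. At an unadjusted p under 0.05, 3 were lower and 0 higher, and DESeq2 called 2 lower. By edgeR, 2 were called lower with sex as a covariate (4.8% of all genes tested) and 2 with no filter. Ddc, which makes serotonin from the product of Tph1, was at 37.2 and 28.2 CPM in WT and 18.6 and 18.1 CPM in KO (log2 fold change -0.83, SE 0.17, edgeR adjusted p = 0.0619, and 0.042 with sex as a covariate). Gch1, which starts the synthesis of the cofactor that Tph1 needs, was at 50.2 and 63.2 CPM in WT and 36.9 and 30.7 CPM in KO (-0.75, edgeR adjusted p = 0.0693, and 0.0301 with sex as a covariate). In both genes the genotypes did not overlap, and Gch1 was not highest in WT replicate 1. Slc18a1, which loads serotonin into granules, followed the granins at 29.3 and 12.2 CPM in WT and 12.6 and 15.6 CPM in KO. Slc6a4, the transporter by which epithelial cells take serotonin up, was at 3.37 and 5.64 CPM in WT and 3.41 and 2.46 CPM in KO.

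Of 12 other gut peptide genes, 7 were tested and 2 fell. With relative log expression factors and with limma-voom, 1 was called lower (adjusted p of Iapp 0.0582 by limma-voom), and with sex as a covariate 3 were. Iapp, which encodes amylin, was at 7.998 and 5.13 CPM in WT and 1.42 and 1.60 CPM in KO (log2 fold change -2.12, SE 0.32, edgeR adjusted p = 0.0472). Adm, the vasodilator adrenomedullin, which many cells make, was at 12.6 and 14.3 CPM in WT and 6.56 and 5.77 CPM in KO (-1.13, SE 0.17, edgeR adjusted p = 0.0465). Nts, which encodes neurotensin, was at 124 and 49.6 CPM in WT and 32.9 and 61.9 CPM in KO, the same order of libraries as Tph1 (-0.87, edgeR adjusted p = 0.329). Tac1, the gene of substance P, was at 2.12 and 1.35 CPM in WT and 1.11 and 0.585 CPM in KO (-1.03, edgeR adjusted p = 0.241). Gast, Vip and Npy had 0 counts in all libraries, which allows up to 3 counts, or 0.12 to 0.136 CPM, in each.

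Among 18 nutrient and irritant sensor genes, 13 were tested and 1 fell, Gpr35, a receptor for tryptophan metabolites. It was at 33.3 and 35.9 CPM in WT and 14.0 and 15.7 CPM in KO (log2 fold change -1.22, SE 0.12, edgeR adjusted p = 0.0434). At an unadjusted p under 0.05, 2 sensors were higher and 2 lower. DESeq2 and edgeR with sex as a covariate each called 2 higher, the fatty acid receptor genes Ffar2 and Ffar4, picked out after their values were seen. The log2 fold change of Ffar2 was 0.73 (edgeR adjusted p = 0.0624, and 0.0366 with the covariate). That of Ffar4 was 0.90 (edgeR adjusted p = 0.0862, and 0.0381 with the covariate). Ffar1, another fatty acid receptor gene of the list, went the other way (-1.78, edgeR adjusted p = 0.0729). It was not called, and it too was picked out after its values were seen.

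Of 21 receptor genes for the hormones, 10 were tested and 0 were called by edgeR, with 1 higher and 2 lower at an unadjusted p under 0.05, and 1 called higher by DESeq2. Npy1r, a receptor for peptide YY, was at 5.20 and 2.69 CPM in WT and 1.77 and 2.92 CPM in KO (-0.74, edgeR adjusted p = 0.325). Rxfp4, the receptor for insulin-like peptide 5, had at most 1 count in a library. Sstr2, a somatostatin receptor picked out after its values were seen, had 7 and 13 counts in WT and 53 and 60 in KO (2.38, SE 0.42, edgeR adjusted p = 0.0536). It was called higher by edgeR with library size scaling (adjusted p = 0.043), a filter of CPM 1 in 2 libraries (0.0492), no filter (0.0203) and sex as a covariate (0.0395).

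The calls of Sox4, Iapp, Adm and Gpr35 did not outlast the loss of a KO library. When either KO library was left out, edgeR called 0 of all genes (at an unadjusted p under 0.05, 1219 higher and 1038 lower without KO replicate 1, and 1010 higher and 977 lower without KO replicate 2). The log2 fold changes of the 4 genes then ran from 1.14 to 1.40 for Sox4, -2.18 to -2.05 for Iapp, -1.23 to -1.02 for Adm and -1.28 to -1.15 for Gpr35.

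**Figure D4:**
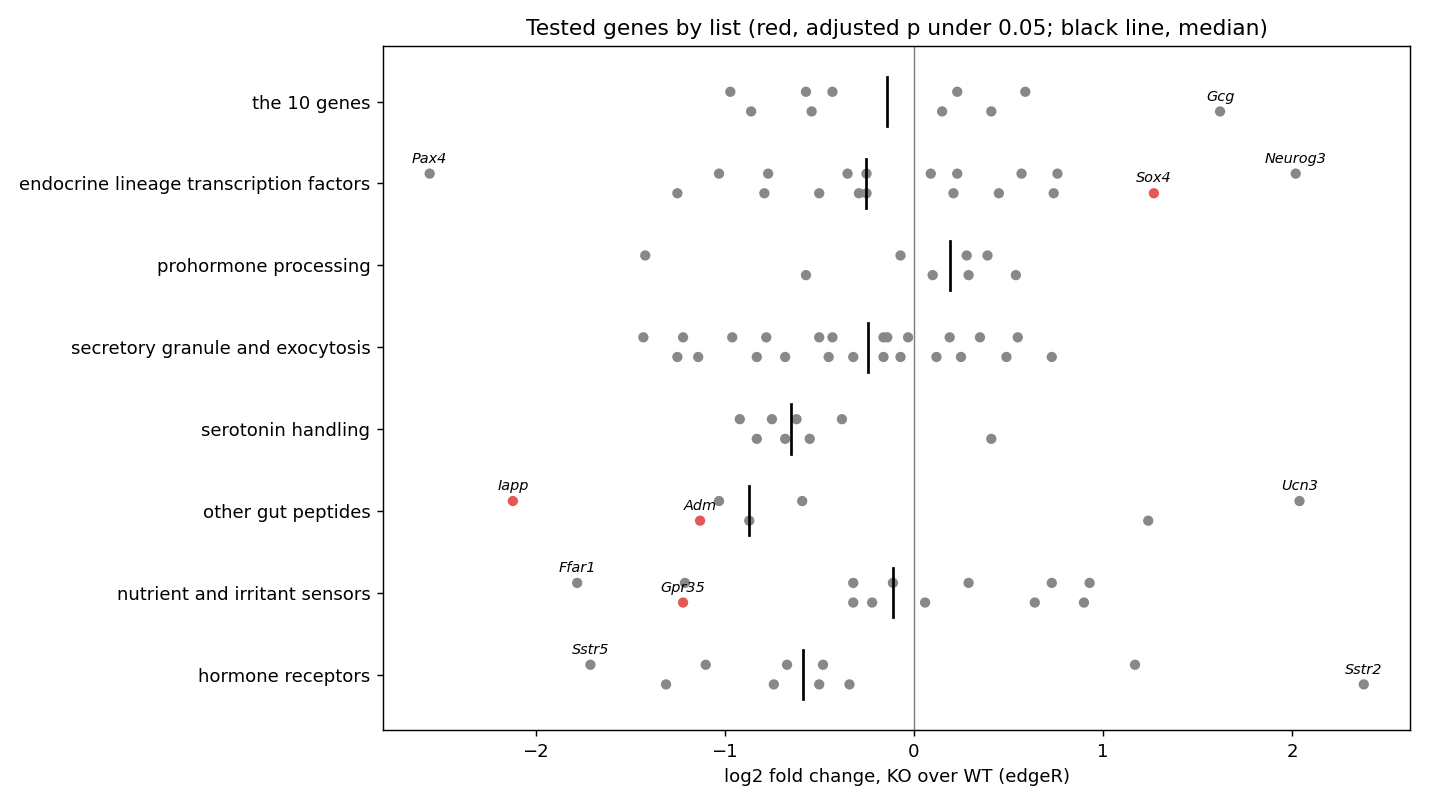
Log2 fold change, KO over WT, of the tested genes in each list (1 point per gene; red, edgeR adjusted p under 0.05; black line, median of the list). Only Sox4, Iapp, Adm and Gpr35 are red in these 8 lists, and the serotonin handling genes lie mostly left of 0, with a median of -0.65.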

How the data were processed

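The deposited table gives gene counts as whole numbers, and the values show no normalisation by the authors. Per the submitters' processing notes, the tools were STAR 2.4.2a, RSEM 1.2.29 and FastQC 0.11.2, with the build mm10. Not given in the sources used here are the annotation, strandedness and rounding. Each title carries a number of its own that is not explained, and the sexes differed within each genotype, so libraries of a genotype came from different animals. The p-values cover no more than the spread among these libraries. Replicates were numbered in accession order and pair nothing.

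Genes were kept with filterByExpr, scaled by TMM and tested with edgeR 4.0.16 (quasi-likelihood F-test, legacy and robust options, R 4.3.3), KO against WT, two-sided, Benjamini-Hochberg over all 14861 genes, with 2 residual degrees of freedom. SE is the fold change divided by the square root of F. Alternatives were other scalings and filters, DESeq2 1.42.0, limma-voom 3.58.1, robust off, sex as a covariate and omission of each library. The test was tested on simulated data, whose spread was set from the mean count and not from the spread of these members, which it does not cover. Lengths and coordinates (1-based) are from GENCODE M21 (GRCm38), and lengths are the union of all annotated exons.

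The members and lists were chosen with earlier results of these data known. Named are the 10 members, the called genes of each list, and abundant genes of some lists without a call. Genes whose roles lie next to those of the members are named as well. Where a symbol stood on several rows, the row with most counts was used.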

Additional observations from a re-analysis of the deposited data

Results flagged for a closer look

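The difference between genotypes pointed opposite ways in the male pair (KO replicate 2 minus WT replicate 1) and the female pair (KO replicate 1 minus WT replicate 2) for 3 members. On log2(CPM + 0.5) it was -0.97 in males and 0.22 in females for Sst, 1.57 and -0.42 for Insl5, and -0.75 and 1.29 for Cck. Each pair holds 1 library per genotype, so the difference between sexes was not tested. Sex was read from the data, and these pairs also differ in any other way in which the libraries differ.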

How the results depend on the processing

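With all 4 libraries, 0 members were called in either direction. One member, Gcg, was called higher (1 member) with library size scaling, upper quartile factors, a filter of CPM 1 in 2 libraries, no filter, DESeq2 and sex as a covariate, and not with relative log expression factors, limma-voom or robust off. Leaving out 1 library gave 0 members higher each time and 0 to 3 lower, the 3 being Chga, Chgb and Sst without WT replicate 2. Over all genes the counts were 255 higher and 282 lower. They became 604 and 186 with library size scaling (76.5% higher against 47.5%, with the median of all genes shifted to 0.153), 416 higher with upper quartile factors (61.1%), 862 and 770 with no filter, 952 and 975 with DESeq2, 696 and 713 with sex as a covariate, and 0 to 1271 higher and 0 to 1019 lower with 1 library left out. Reversals came with libraries left out. Without WT replicate 1, Chgb was at 0.23, Sct at 0.07 and Sst at 0.31, with Cck at 1.18, Neurod1 at 1.25 and Pyy at 0.49. Without WT replicate 2, Cck was at -0.32, Neurod1 at -0.10 and Pyy at -0.10, with Chgb at -1.05, Sct at -0.78 and Sst at -1.04. Cck was at -0.31 without KO replicate 1 and Pyy at -0.08 without KO replicate 2. The fits that leave out a WT or KO library assume that the lone sample varies like the other group. No paired analysis was possible because the replicate numbers follow accession order and match no samples, so the only grouping of libraries across genotypes was sex, as a covariate. Counts below about 100, as for Cck and Neurog3, limit the precision of those genes.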
